A study of Mus musculus with 6 samples.

Results

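The kallikrein-related peptidases (Klk) and the Kazal-type protease inhibitors (Spink) were followed in sorted medullary thymic epithelial cells (mTECs) of Mbd1 knockout and Mbd1 wild type mice. A gene was taken where the gene symbol column of the authors' matrix began with Klk or Spink followed by a digit, and its probe of highest mean over the 6 array columns stood for it. This gave 29 genes of the 21538 with a symbol, made up of 23 Klk genes and 6 Spink genes, with 32 probes of the 41174 on the array. All 29 passed the filter on dim probes (a signal well above background on 3 or more of the 6 arrays), which 18636 genes of the matrix passed. The genes were chosen by name, and the probe for each by its measured signal.

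The mice were 30 days old. Mbd1 knockout mTECs were represented by 3 arrays and Mbd1 wild type mTECs by 3 arrays, of 4 biological replicates made per genotype, 1 of which the authors removed from each. The sort took cells that were negative for DAPI, CD11c, CD45 and Ly51 and positive for EpCAM and class II, and the RNA was amplified before Cy3 labelling. The deleted part of Mbd1, the strain and the number of animals behind a replicate were not given in the sources used here.

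Kallikreins are secreted serine proteases made as inactive precursors. In the upper epidermis, Klk5, Klk7 and Klk14 cleave the proteins that hold dead surface cells together, and Klk5 activates the precursors of the others; Spink5, known as LEKTI, inhibits them, and its loss in humans causes the skin disease Netherton syndrome. Rodents also carry an expanded Klk1 group, made mainly by the granular ducts of the submandibular gland and other glands, whose products process kininogen and growth factor precursors. mTECs transcribe many genes of skin, gland and gut, a programme in which the regulator Aire takes part, and the product of Mbd1 attaches to DNA where CpG sites are methylated.

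The labels on the arrays and in the matrix did not match, and this bears on every value below. By rank of probe values (a rank correlation of 1 over 40929 probes with a single spot, against 0.952 to 0.986 for other pairs), columns KO 2 and KO 3 equalled the scanner arrays titled WT 1 and WT 3, columns WT 1, WT 2 and WT 3 equalled the arrays titled WT 2, KO 1 and KO 3, and column KO 1 equalled no array. Values here follow the matrix column names, under which the targeted gene was low in the knockout. Mbd1 read 5.64, 5.61 and 5.60 in KO columns 1 to 3, against 8.83, 8.60 and 9.0 in WT columns 1 to 3, all on the log2 scale (difference -3.19, SE 0.19, limma, adjusted p = 3.85e-05). Columns KO 2, KO 3 and WT 1 came from slide 1 and columns WT 2 and WT 3 from slide 2, and the slide of KO 1 is unknown. Among the 5 placed columns only slide 1 held both genotypes, and values within slide 1, KO 2 and KO 3 against WT 1, are given beside the main ones. The column medians lay between 7.13 and 7.14, and between 73.5% and 81.3% of probes were well above background on an array. Signal over background was judged on the scanner arrays, for the filter too. The array titled KO 2 was among them but equalled no column, and column KO 1 had no such reading. Defining epithelial markers were high in every column: the EpCAM gene (under its older symbol Tacstd1) lay between 12.78 and 13.24 and Krt14 between 12.87 and 13.30. Aire, the regulator of tissue antigens, read 11.25, 10.50 and 11.44 in KO columns, against 10.94, 10.52 and 10.85 in WT columns (difference 0.30, SE 0.26).

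All 23 Klk genes lay together on chromosome 7, within 549 kb (RefSeq, GRCm38.p6, chr7:43680880-44229622). The 9 genes Klk5 to Klk12 and Klk14, several of them made in the upper epidermis, spanned 170.3 kb, and the 12 genes of the Klk1 group spanned 279 kb. Since Mbd1 binds methylated CpG, the promoter sequences are shown for the 6 Klk genes whose KO and WT columns did not overlap, 3 higher and 3 lower in the knockout. They are the 250 bases before the gene start, 5′ to 3′ on the plus strand, from RefSeq (GRCm38.p6), with each CpG in capitals. The windows are chr7:43811044-43811293 for Klk7, chr7:43824294-43824543 for Klk6, chr7:43842019-43842268 for Klk5, chr7:43995627-43995876 for Klk1b11, chr7:44052040-44052289 for Klk1b27 and chr7:44187986-44188235 for Klk1b24. The genes higher in KO columns come first.
Klk7: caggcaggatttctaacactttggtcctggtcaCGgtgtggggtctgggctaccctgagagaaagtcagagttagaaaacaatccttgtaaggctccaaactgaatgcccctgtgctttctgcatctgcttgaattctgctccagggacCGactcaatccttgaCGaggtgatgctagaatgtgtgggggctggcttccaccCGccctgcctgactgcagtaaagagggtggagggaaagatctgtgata
Klk6: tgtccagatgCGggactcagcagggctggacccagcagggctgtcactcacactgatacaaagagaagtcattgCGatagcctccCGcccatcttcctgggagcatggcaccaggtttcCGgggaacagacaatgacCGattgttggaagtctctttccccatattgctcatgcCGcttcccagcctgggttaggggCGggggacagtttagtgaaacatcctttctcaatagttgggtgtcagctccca
Klk5: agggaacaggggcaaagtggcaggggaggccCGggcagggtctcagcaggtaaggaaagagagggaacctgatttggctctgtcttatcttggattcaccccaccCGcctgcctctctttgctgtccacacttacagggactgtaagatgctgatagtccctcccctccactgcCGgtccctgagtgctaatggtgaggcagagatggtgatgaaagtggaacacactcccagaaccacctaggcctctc
Klk1b11: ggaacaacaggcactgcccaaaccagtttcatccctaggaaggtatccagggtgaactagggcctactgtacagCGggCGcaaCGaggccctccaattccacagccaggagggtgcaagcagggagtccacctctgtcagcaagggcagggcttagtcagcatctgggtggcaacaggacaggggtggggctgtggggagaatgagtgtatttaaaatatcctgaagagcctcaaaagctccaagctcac
Klk1b27: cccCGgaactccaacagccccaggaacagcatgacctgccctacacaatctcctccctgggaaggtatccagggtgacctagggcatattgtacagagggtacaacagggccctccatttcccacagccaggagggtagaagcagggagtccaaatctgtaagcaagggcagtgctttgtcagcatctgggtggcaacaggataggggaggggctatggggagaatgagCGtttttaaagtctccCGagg
Klk1b24: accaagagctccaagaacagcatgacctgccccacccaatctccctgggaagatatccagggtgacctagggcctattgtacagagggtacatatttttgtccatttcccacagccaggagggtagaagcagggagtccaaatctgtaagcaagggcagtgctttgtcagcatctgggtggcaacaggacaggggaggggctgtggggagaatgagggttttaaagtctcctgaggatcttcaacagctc

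The Klk promoters were poor in CpG. RefSeq promoters were at hand for 24 of the 29 genes (all 23 Klk genes and Spink2), and their median was 2.5 CpG sites per 250 bases, against 6 over all 27018 promoters. At most 5 CpG sites stood in 83.3% of the 24, against 49.5% of all promoters. The Klk1 group had the fewest, with a median of 1 and a range of 0 to 3, and the genes Klk5 to Klk12 and Klk14 had a median of 4, with Klk14 at 0 and Klk8 at 18. Among the sequences printed above, Klk6 had 7 sites, Klk7 4, Klk5, Klk1b11 and Klk1b27 3 each, and Klk1b24 none. The printed Klk1b24 and Klk1b27 promoters were 82.2% identical, and over the 66 pairs of the Klk1 group the median identity was 71.4%, against 44.4% over the 36 pairs among Klk5 to Klk12 and Klk14. The TATA box letters TATAAA, searched on both strands, were in 1 of the 24 (Klk15, 4.17%), against 13.0% of all promoters. The AP-1 motif TGANTCA, its own reverse complement, was in 0 of the 24, against 6.85% of all promoters. Methylation was not measured, and these counts describe sequence alone.

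**Figure D1:**
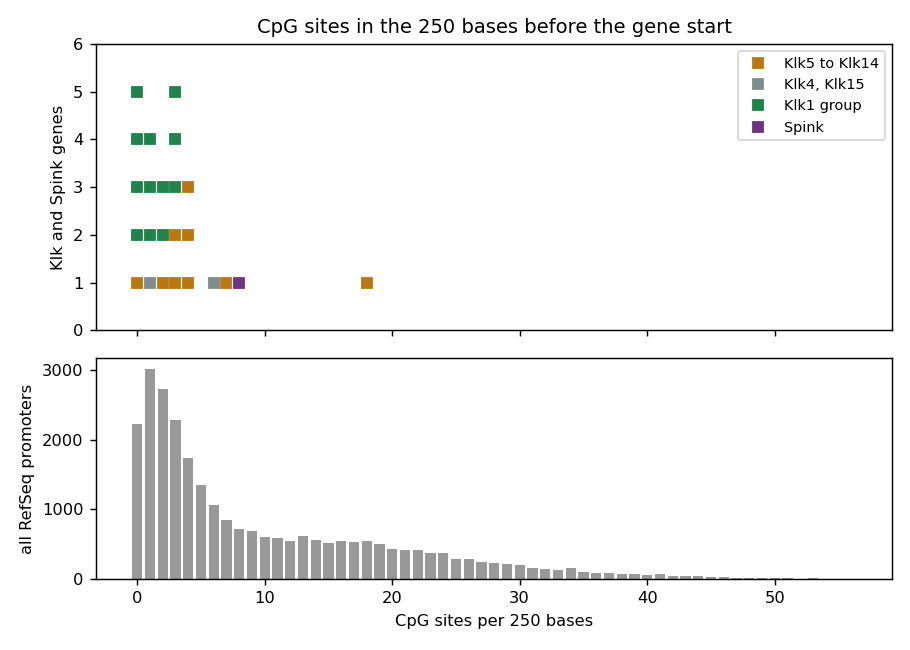
CpG sites in the 250 bases before the gene start (horizontal axis) for the 24 Klk and Spink genes with a RefSeq promoter (upper panel, 1 square per gene, coloured by role) and for all 27018 promoters (lower panel, number of promoters). The 12 genes of the Klk1 group lie between 0 and 3 sites, and Klk8 stands alone at 18.

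No Klk or Spink gene passed the test between genotypes. Of the 29, 0 were called at a limma adjusted p under 0.05, where 17 of 18636 genes (0.0912%) were called, 15 higher (0.0805%) and 2 lower (0.0107%), and the smallest adjusted p was 0.617, for Klk7. At an unadjusted p under 0.05 there were 3 of 29, against 4.08% of all genes. They were Klk7, higher in KO columns (2.03% of all genes), and Spink4 and Spink5, lower (2.04% of all genes). The KO and WT columns did not overlap for 9 of the 29. KO columns were all higher for Klk7, Klk6, Klk5 and Spink2 (3.93% of all genes), and all lower for Klk1b11, Klk1b24, Klk1b27, Spink4 and Spink5 (4.29% of all genes). Both shares of the 29, 31.0% without overlap and 10.3% at the unadjusted p, were above those of all genes (8.22% and 4.08%), but many of these genes share sequence and a locus and are not independent. With 3 columns a side, an exact permutation test of 1 gene could not go below 0.1.

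By sign, 8 of the 29 differences (KO minus WT) were positive and 21 negative, with a median of -0.16, against a median of -0.01 over all genes, of which 51.4% were negative. Within slide 1 the split was 15 positive and 14 negative, with a median of 0.11, so the lean towards lower values was not seen there. The 95% intervals of all 29 lay between -1.20 and 1.14 on the log2 scale, or signal ratios of KO over WT between 0.435 and 2.20. Each interval holds for its own gene and not for the 29 jointly. A missed threshold with intervals this wide does not show equal levels. Because the sample is a sorted population, fewer cells expressing a gene and less of its RNA per cell cannot be told apart.

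**Figure D2:**
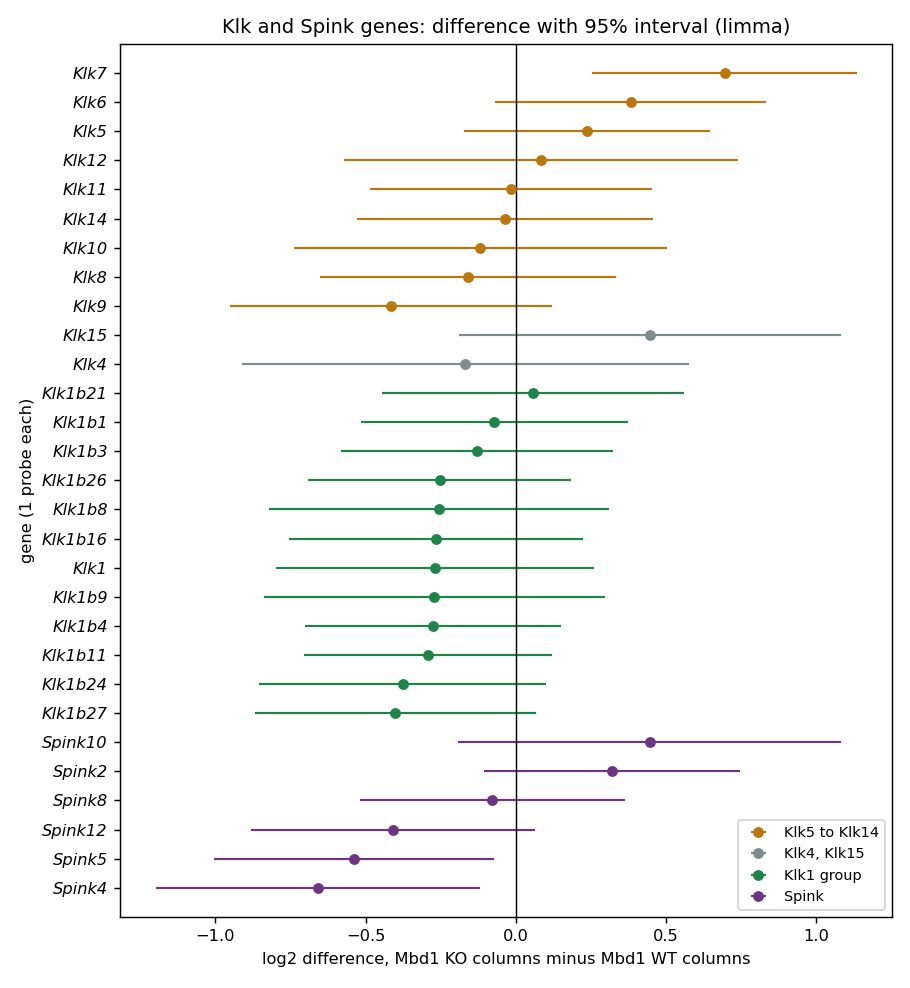
Difference in log2 signal, Mbd1 KO columns minus Mbd1 WT columns (horizontal axis), for each of the 29 genes with its 95% interval from limma (bars), 3 columns per genotype, coloured by role. Only Klk7, Spink5 and Spink4 have intervals that leave out 0, and 11 of the 12 Klk1 group genes lie left of 0; within slide 1 alone 10 of the 12 do.

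Among the kallikreins of the epidermis, Klk7, the chymotrypsin-like protease of the outer skin layer, showed the largest difference of the 29. Klk7 read 13.11, 13.09 and 13.53 in KO columns, against 12.48, 12.51 and 12.66 in WT columns. Every KO column was above every WT column, by at least the gap between 13.09 and 12.66. The means were 13.24 ± 0.25 and 12.55 ± 0.10 (SD, n = 3 each), a difference of 0.70 (SE 0.20, limma, unadjusted p = 0.00513, adjusted p = 0.617), or 1.62-fold. In the authors' deposited table the same probe had a log2 ratio of 0.70 and an FDR of 0.631. Within slide 1 the Klk7 difference was 0.84.

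The size of the Klk7 difference rested on which of its 3 probes was read. The brightest, A_52_P418429, gave the values above. A_51_P151159 read 11.84, 12.05 and 12.06 in KO columns, against 12.05, 11.34 and 11.81 in WT columns (difference 0.25, SE 0.22). A_52_P538490 read 11.51, 11.31 and 11.59 in KO columns, against 11.48, 11.10 and 11.36 in WT columns (difference 0.16, SE 0.20). All 3 differences were positive, but KO and WT columns overlapped at both other probes, and the mean over the 3 probes differed by 0.37.

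**Figure D3:**
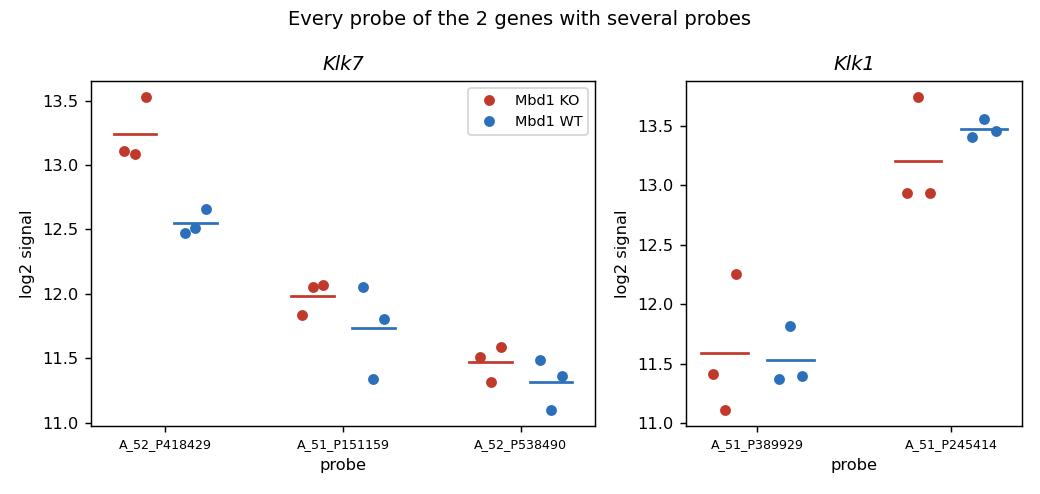
Log2 signal (vertical axis) of every probe of Klk7 and Klk1, the genes with more than 1 probe, in Mbd1 KO columns (red, left) and Mbd1 WT columns (blue, right); each point is 1 column and each line a mean of 3. KO and WT columns are apart at the brightest Klk7 probe only, and column KO 2 is the highest KO point at one Klk1 probe and the lowest at the other.

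Klk6, a trypsin-like protease also known from oligodendrocytes of the central nervous system, read 12.50, 12.17 and 12.20 in KO columns, against 11.66, 11.97 and 12.10 in WT columns. The groups did not overlap, though KO 2 and WT 3 lay close together, and the difference was 0.38 (SE 0.21, limma, unadjusted p = 0.0888). Klk5, the trypsin-like starter of the skin cascade, read 9.88, 9.69 and 9.82 in KO columns, against 9.48, 9.69 and 9.51 in WT columns. KO 2 and WT 2 were equal to 2 decimals for Klk5, and the difference of 0.24 (SE 0.19) was near its standard error. Within slide 1 Klk6 and Klk5 differed by 0.53 and 0.27.

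Klk14, the other trypsin-like protease of the cascade, did not share this order over the 6 columns. It averaged 11.10 ± 0.08 in KO columns and 11.14 ± 0.39 in WT columns (SD, n = 3 each), a difference of -0.03 (SE 0.23), which turned to 0.40 within slide 1. Klk8, known as neuropsin from the hippocampus and also made in skin, averaged 8.79 ± 0.34 in KO columns and 8.95 ± 0.21 in WT columns, a difference of -0.16 (SE 0.23), which turned to 0.17 within slide 1. Klk9 read 7.23, 7.45 and 6.96 in KO columns, against 8.10, 7.49 and 7.29 in WT columns (difference -0.42, SE 0.24, limma, unadjusted p = 0.117). WT 1 was the highest Klk9 column, and without it the difference was -0.18. Klk10, Klk11 and Klk12 differed by -0.12, -0.02 and 0.08, each by less than its standard error, and by 0.33, 0.33 and 0.48 within slide 1. Klk11 was dim, well above background on 5 of the 6 arrays.

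Of these 9 genes, 4 differences were positive and 5 negative, with a median of -0.02. Column WT 1 was the lowest of the 6 columns in 6 of the 9, whereas it was the lowest in 22.9% of all genes. WT 1 is the sole WT column of slide 1, and there 8 of the 9 differences were positive, with a median of 0.33; the exception was Klk9 at -0.90. The part of this column in the result cannot be told apart from genotype within that slide.

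Klk4, which clears enamel matrix proteins from developing teeth, and Klk15, which in humans can activate the precursor of prostate-specific antigen, lie outside both groups by role. Klk4 read 10.23, 11.36 and 9.84 in KO columns, against 10.49, 10.44 and 11.00 in WT columns. The KO columns held both the highest and the lowest value, and the difference was -0.17 (SE 0.34). It turned to 0.11 within slide 1 and to 0.15 without KO 3. Klk15 read 10.11, 9.83 and 10.22 in KO columns, against 8.93, 10.21 and 9.68 in WT columns, a difference of 0.45 (SE 0.29). The low value of WT 1 set most of the Klk15 difference, which was 0.11 without that column and 1.09 within slide 1.

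Most genes of the Klk1 group were lower in knockout columns, and none of them passed the test. Of its 12 genes, 11 differences were negative and 1 positive, 0 reached an unadjusted p under 0.05, and the median was -0.27, with a range of -0.40 to 0.06. All 12 intervals lay between -0.87 and 0.56. Within slide 1, 10 of the 12 were negative and the median was -0.15. These genes are near copies of one another and probes may cross-hybridise: the matrix's second symbol column gave the same name for 5 of the 12 probes, several names for 3, another name for 3 and none for 1, whereas it gave the same name for the probes of all 17 other genes. Each gene name in this group is therefore uncertain, and the 12 are not 12 independent readings.

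The 3 genes of the group without overlap were Klk1b27, Klk1b24 and Klk1b11. Klk1b27 read 10.61, 10.13 and 10.62 in KO columns, against 10.80, 11.07 and 10.70 in WT columns, a difference of -0.40 (SE 0.21, limma, unadjusted p = 0.0866). Klk1b24 read 11.30, 10.71 and 11.36 in KO columns, against 11.54, 11.47 and 11.48 in WT columns, a difference of -0.38 (SE 0.22). Klk1b11 read 11.28, 10.99 and 11.26 in KO columns, against 11.44, 11.48 and 11.48 in WT columns, a difference of -0.29 (SE 0.19). In all 3, KO 2 was the lowest column, and KO 1 and KO 3 lay only a little under the lowest WT column. Within slide 1 the same genes differed by -0.42, -0.51 and -0.32.

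Klk1, the tissue kallikrein that releases kinin from kininogen, read 12.94, 13.75 and 12.94 in KO columns, against 13.41, 13.56 and 13.46 in WT columns, a difference of -0.27 (SE 0.24) and of -0.07 within slide 1. KO 1 and KO 3 were below all WT columns and KO 2 above them. The second Klk1 probe, which the second symbol column assigns to Klk1b4, read 11.41, 11.11 and 12.25 in KO columns, against 11.37, 11.82 and 11.40 in WT columns (difference 0.06). The 2 probes ordered the KO columns in opposite ways, as the plot of single probes shows. Klk1b8 followed the first of them, with 10.87, 11.86 and 11.02 in KO columns, against 11.62, 11.52 and 11.38 in WT columns (difference -0.26, SE 0.26, and -0.18 within slide 1).

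The group also holds partners and processors of growth factors and renin. The second symbol column names the Klk1b3 probe Klk1b4, the Klk1b4 probe Klk1b5 and the Klk1b24 probe Klk1b3. Roles given here follow the first symbol column, and which subunit a probe reads is uncertain. Klk1b3, the gamma subunit of the high-molecular-weight nerve growth factor complex, read 14.03, 14.60 and 14.25 in KO columns, against 14.50, 14.44 and 14.32 in WT columns (difference -0.13, SE 0.21). Klk1b4, its alpha subunit, read 12.32, 12.70 and 12.36 in KO columns, against 12.73, 12.70 and 12.77 in WT columns (difference -0.28, SE 0.19). Klk1b26, known for cleaving the renin precursor, read 12.25, 12.74 and 12.59 in KO columns, against 12.82, 12.78 and 12.74 in WT columns (difference -0.25, SE 0.20). In all 3, KO 1 was the lowest of the 6 columns and KO 2 lay among or above the WT columns. Within slide 1, which leaves out KO 1, Klk1b3, Klk1b4 and Klk1b26 differed by -0.08, -0.21 and -0.15.

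Klk1b9, an epidermal growth factor-binding protein, read 11.74, 11.48 and 12.46 in KO columns, against 12.02, 12.42 and 12.06 in WT columns (difference -0.27, SE 0.26). Its KO columns held both the lowest and the highest value. Klk1b16 averaged 12.54 ± 0.33 in KO columns and 12.81 ± 0.21 in WT columns (SD, n = 3 each), a difference of -0.26 (SE 0.22). Klk1b1 differed by -0.07 (SE 0.20) and Klk1b21, the 1 positive gene, by 0.06 (SE 0.23). Within slide 1 Klk1b9 and Klk1b16 differed by -0.05 and -0.14, Klk1b21 by 0.24, and Klk1b1 turned to 0.11.

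The KO columns split the Klk1 group in 2 patterns. Column KO 2 was the highest of the 3 KO columns in 5 genes (Klk1, Klk1b3, Klk1b4, Klk1b8 and Klk1b26) and the lowest in the other 7. The lowest of the 6 columns was a KO column in all 12 genes, KO 2 in 7, KO 1 in 4 and KO 3 in 1, whereas a KO column was lowest in 55.9% of all genes. The negative differences thus came from different KO columns in different genes. Without column KO 1 the median of the group was -0.16, and without each other column in turn it lay between -0.29 and -0.22.

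**Figure D4:**
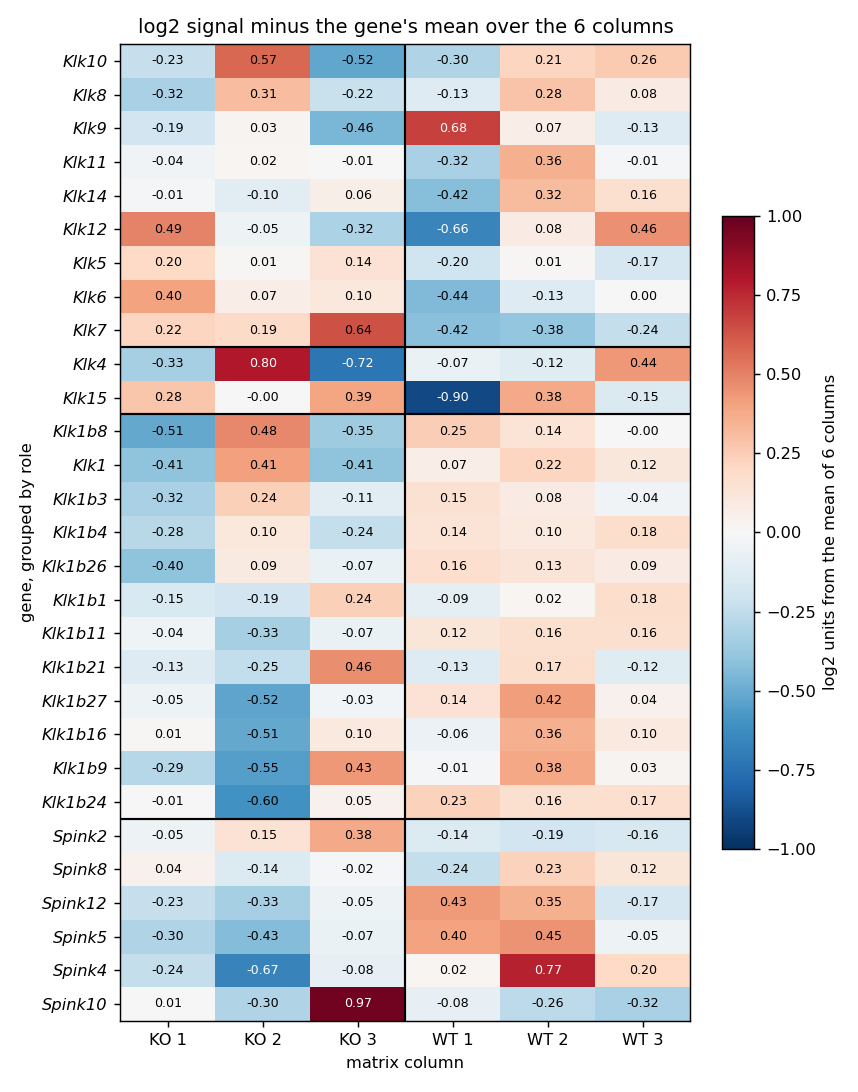
Log2 signal of each of the 29 genes minus its mean over the 6 columns (colour and number), with Mbd1 KO columns left of Mbd1 WT columns and genes grouped by role. In the Klk1 group, column KO 2 is blue (low) in 7 genes and red (high) in 5, and column WT 1 is blue in most of the genes Klk5 to Klk14.

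The Spink genes were scattered, with Spink2 on chromosome 5, Spink4 on chromosome 4, Spink8 on chromosome 9, and Spink5, Spink10 and Spink12 on chromosome 18. Among these inhibitors, Spink5, which holds the skin kallikreins in check, was lower in the knockout columns, though it did not pass the test. Spink5 read 11.48, 11.35 and 11.71 in KO columns, against 12.18, 12.23 and 11.73 in WT columns. KO 3 and WT 3 nearly met, so the groups were only just apart. The means were 11.51 ± 0.18 and 12.05 ± 0.28 (SD, n = 3 each), a difference of -0.54 (SE 0.21, limma, unadjusted p = 0.0273, adjusted p = 0.999), and -0.65 within slide 1. Spink12, on the same chromosome, read 12.36, 12.26 and 12.54 in KO columns, against 13.02, 12.95 and 12.43 in WT columns (difference -0.41, SE 0.22, limma, unadjusted p = 0.0848). Its columns stood in an order like that of Spink5, with WT 1 and WT 2 high and WT 3 among the KO values. Within slide 1 Spink12 differed by -0.62. Mbd1, the targeted gene, also lies on chromosome 18, with Spink5, Spink10 and Spink12. For these genes, loss of Mbd1 cannot be told apart from differences in DNA linked to the targeted locus, which were not tested.

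Spink4, an inhibitor known from goblet cells of the gut, had the most negative difference of the 29. It read 11.04, 10.62 and 11.20 in KO columns, against 11.30, 12.05 and 11.48 in WT columns. KO 3 and WT 1 lay close, and WT 2 was well above the rest. The means were 10.95 ± 0.30 and 11.61 ± 0.39 (SD, n = 3 each), a difference of -0.66 (SE 0.25, limma, unadjusted p = 0.0207, adjusted p = 0.999), or a ratio of 0.633. Within slide 1, where WT 2 has no place, it was -0.40.

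Spink2, an inhibitor of the sperm protease acrosin, read 8.04, 8.24 and 8.47 in KO columns, against 7.95, 7.90 and 7.93 in WT columns (difference 0.32, SE 0.19, limma, unadjusted p = 0.127). The WT columns lay close together and all below the KO columns, and the difference within slide 1 was 0.40. Spink10 read 6.35, 6.04 and 7.31 in KO columns, against 6.26, 6.08 and 6.02 in WT columns (difference 0.45, SE 0.29). That difference was 0.07 without column KO 3 and 0.41 within slide 1. Spink8 averaged 7.92 ± 0.09 in KO columns and 8.0 ± 0.25 in WT columns (SD, n = 3 each), a difference of -0.08 (SE 0.20), which turned to 0.16 within slide 1. Of the 6 Spink genes 2 were positive and 4 negative, with a median of -0.24, and within slide 1 3 were positive and 3 negative, with a median of -0.12.

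Another 3 probes carry a Klk or Spink name in the second symbol column alone and are not counted among the 29. Those named Klk1 (A_51_P395309) and Spink6 (A_51_P432607) differed by -0.15 (SE 0.22) and -0.06 (SE 0.21). The probe named Spink3, A_51_P365516, has an uncertain identity, since its coordinate columns name different chromosomes. It read 13.51, 13.21 and 13.93 in KO columns, against 14.04, 14.20 and 14.17 in WT columns. Its KO columns were all lower (difference -0.58, SE 0.22, limma over probes, unadjusted p = 0.0215, adjusted p = 0.999). Spink3 is the mouse name of the inhibitor that guards the pancreas against trypsin.

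**Figure D5:**
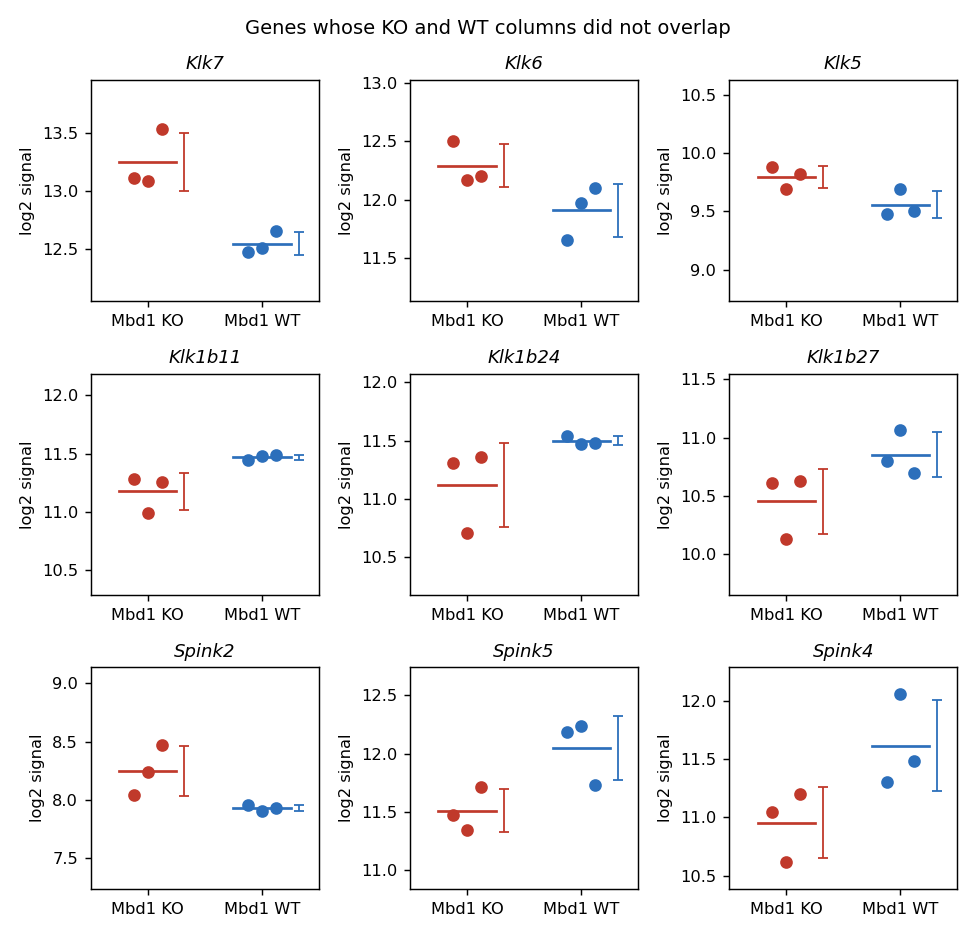
Log2 signal (vertical axis, scale differs by panel) of the 9 genes whose Mbd1 KO columns (red, left) and Mbd1 WT columns (blue, right) did not overlap; each point is 1 column, horizontal lines are means and bars SD (n = 3 each). The gaps are widest relative to the spread for Klk7 and narrowest for Klk5 and Spink5.

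The substrates and partners of these proteases were read from lists of named genes, none of which had a member that passed the test. Of 18 genes of the kallikrein cascade and its targets, 6 differences were positive and 12 negative (median -0.15), and 1 reached an unadjusted p under 0.05. That gene, Tgm3, a transglutaminase of the cornified envelope, read 11.39, 11.50 and 11.26 in KO columns, against 11.47, 12.30 and 11.95 in WT columns (difference -0.52, SE 0.23). Sbsn, a suprabasal skin protein, and Asprv1, the protease that processes filaggrin, differed by -0.35 and -0.34, and St14, the membrane protease matriptase, by 0.30. Of 12 genes of keratinocyte terminal differentiation, 6 were positive and 6 negative (median -0.06), and 3 (25%) reached an unadjusted p under 0.05, against 4.08% of all genes. Krt2, a keratin of the upper epidermis, read 9.96, 10.20 and 10.48 in KO columns, against 9.44, 9.45 and 9.44 in WT columns (difference 0.77, SE 0.20, limma, adjusted p = 0.439). Krt1, Ivl and Krt10, all of differentiating keratinocytes, differed by -0.55, -0.51 and -0.46. Genes of the outer skin thus gave differences of both signs.

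For the gland kallikreins, 6 other salivary gland products, not all of them from the granular ducts, were measured. Of these, 2 were positive and 4 negative (median -0.36). Amy1, salivary amylase, read 9.73, 9.76 and 9.17 in KO columns, against 10.08, 10.20 and 9.98 in WT columns (difference -0.54, SE 0.22, limma, unadjusted p = 0.0298). Smr1, a submandibular prohormone, and the renin genes Ren2 and Ren1 differed by -0.51, -0.43 and -0.28. The second symbol column gives both renin names to each renin probe, so these probes may not be independent readings. Of 8 genes of the kinin system, on which Klk1 acts, 6 were positive and 2 negative (median 0.08); the kininogen genes Kng1 and Kng2 differed by -0.27 and 0.17, the peptidase gene Mme by -0.31 and Cpn1 by 0.26.

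Of 8 other protease inhibitors, 2 were positive and 6 negative (median -0.10). The 4 of smallest p differed by -0.22 (Serpina3n), -0.20 (Serpinb6a), 0.16 (Serpina5) and -0.12 (Cst6). Of 9 digestive proteases, only some of them targets of Spink-type inhibition, 4 were positive and 5 negative (median -0.04). Ela1 differed by 0.39, Cpa1 by 0.35, Prss7 by -0.20 and Ctrl by -0.17. Of 7 genes of sperm proteases and other sperm proteins, 4 were positive and 3 negative (median 0.03). Prss21 differed by 0.37, Spaca1 by 0.28 and Acr, the acrosin gene, by -0.06. These 3 lists held no gene at an unadjusted p under 0.05.

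Summed markers of thymocytes and of cortical epithelium did not overlap between the genotypes, and no marker of another cell type passed the test. The summed signal of 11 thymocyte markers was 5669 to 6912 in KO columns and 3202 to 4281 in WT columns, with 10 of 11 differences positive and 5 (45.5%) at an unadjusted p under 0.05, against 4.08% of all genes, and Cd8b1 and Dntt differed by 0.97 and 0.91. Cortical epithelial markers summed to between 54682 and 64908 in KO columns and between 44565 and 48650 in WT columns. Of these 8 markers 7 were positive (Prss16 0.52, Ccl25 0.43) and Ly75 was negative (-0.27). Ccl25 gave the largest part of each cortical sum, and a lack of overlap is not shown without it. Summed mTEC and epithelial markers overlapped, at 208857 to 221441 in KO columns and 197484 to 212957 in WT columns. Most of each sum came from the class II pathway genes Cd74 and H2-Aa and from Krt8. By gene, 9 of the 17 were positive and 8 negative. B cell markers summed to 7223 to 8206 in KO columns and 6980 to 7365 in WT columns. Plasma cell markers summed to 4169 to 5473 in KO columns and 4352 to 5236 in WT columns, mostly from Xbp1 (difference -0.21). Of the 7 plasma cell markers 4 were positive and 3 negative. An unadjusted p under 0.05 was reached by 2 (28.6%), Igj at 1.74 and Mzb1 (as 2010001M09Rik) at 0.56. Dendritic cell and macrophage markers summed to 22369 to 25479 in KO columns and 24485 to 29452 in WT columns, a sum to which Lyzs (difference -0.27) gave most. By gene, 7 of the 10 were positive and 2 reached an unadjusted p under 0.05, Tyrobp at 0.70 and Itgax at 0.47. The part of these markers in the Klk and Spink differences was not tested.

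Columns also differed in sex-linked genes. Xist, made from the inactive X chromosome, read 13.39, 12.53 and 12.11 in KO columns, against 12.21, 12.13 and 13.06 in WT columns. The Y-linked gene Ddx3y read 5.95, 7.70 and 7.39 in KO columns, against 7.96, 7.28 and 7.40 in WT columns. KO 1 was the highest for Xist and the lowest for Ddx3y. Several Klk1 group genes are known to respond to androgen in the mouse submandibular gland, and the part of sex in these values was not tested.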

How the data were processed

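Gene expression was measured on Agilent mouse arrays in 3 Mbd1 knockout and 3 Mbd1 wild type samples. The deposited scanner files held linear intensity values from Agilent Feature Extraction (10.7.3.1 per the file headers, 10.6 per the submitters' processing notes), and the authors' deposited matrix held log2 values in 6 columns; the sources used here name no normalization tool. From the authors' deposited table, the log2 ratio, p-value and FDR of the members were read; the linear fold and the log-odds score that the authors deposited per probe were not used. KO minus WT was fitted with limma 3.58.1 (lmFit, eBayes; R 4.3.3) on 1 probe per gene over 18636 genes, with Benjamini-Hochberg adjustment at 0.05. In rank, 5 columns equalled scanner signals from which no background had been subtracted spot by spot. Ranks cannot show whether a constant was subtracted from a column, so differences of dim genes may be understated. Precision is limited by the number of arrays. The fit was tested on simulated data, with larger shifts than any member's difference and the same spread for all genes. That test does not show whether differences as small as those seen here would be found. Members and lists were chosen with earlier results of these data known. Named were Mbd1 and Aire, the members by rank of p, brightness and role, and up to 4 genes of smallest p per list. The scanner files held no mean signal column, so normexp used the median signal. Promoters were searched as strings (Python 3.11.15). Lists had 151 names in 14 sets, which matched 142 genes of the matrix. Alternatives are in the closing section.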

Additional observations from a re-analysis of the deposited data

How the results depend on the processing

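No Klk or Spink gene was called under any of the 15 alternatives run, and the adjusted p of Klk7 ranged from 0.516 to 1. No filter on dim probes, a filter on all 6 arrays, the mean over probes, trend and robust moderation and scaling to the 75th percentile turned no member's direction. The replicate numbers are shared as numbers alone: deviations of same-numbered columns correlated at -0.315, -0.181 and -0.354, and with number as a replicate block 21 genes were called, against 17, and all 29 members kept their direction. Slide as a block left columns KO 2, KO 3 and WT 1 to compare: 0 genes were called (1148 at an unadjusted p under 0.05, smallest adjusted p 0.0972), the Klk median was 0.11, the Spink median -0.12 and the Klk1 group median -0.15, and the sign turned for Klk10 (0.33), Klk11 (0.33), Klk14 (0.40), Klk1b1 (0.11), Klk4 (0.11), Klk8 (0.17) and Spink8 (0.16). With scanner files grouped by their titles, which go against the matrix names, 0 genes were called (limma, 762 at an unadjusted p under 0.05 on the processed signal and 522 with normexp). By rank, the arrays equal to columns KO 2 and KO 3 then counted as wild type. Those equal to columns WT 2 and WT 3 counted as knockout. The title groups thus did not separate low from high Mbd1, and their signs do not measure the difference between the matrix genotypes. On the processed signal, which shifted the median of all genes to 0.12 and could not be fitted for Klk6, Klk7 and Spink5 owing to outlier spots, 1 member had an unadjusted p under 0.05 and the medians were 0.020 (Klk), 0.012 (Klk1 group) and 0.055 (Spink). There the sign turned for Klk10 (0.10), Klk1b11 (0.11), Klk1b16 (0.25), Klk1b24 (0.24), Klk1b27 (0.28), Klk1b9 (0.29), Klk4 (0.020), Spink10 (-0.10), Spink12 (0.055), Spink4 (0.55) and Spink8 (0.60). With normexp 0 members had an unadjusted p under 0.05, the medians were -0.072 (Klk1 group) and 0.095 (Spink), and the sign turned for Klk1b11 (0.10), Klk1b16 (0.19), Klk1b21 (-0.055), Klk1b24 (0.17), Klk1b27 (0.22), Klk1b9 (0.31), Klk7 (-0.72), Spink10 (-0.092), Spink12 (0.030), Spink2 (-0.035), Spink4 (0.47), Spink5 (0.16) and Spink8 (0.36). The cause of the label conflict was not tested. Leaving out 1 column in turn gave 9 (without WT 2) to 32 (without KO 3) genes called, 11 without WT 3. At an unadjusted p under 0.05 (limma) there were 2 to 5 members. Over all 18636 genes there were 581 (without WT 2) to 1361 (without KO 2), against 760 with all 6 columns. The 5 members, without KO 2, were Klk1, Klk1b8, Klk4, Klk7 and Spink10, so that Spink4 and Spink5 were no longer among them. The Klk median ran from -0.23 to -0.043 (without KO 1), the Klk1 group median from -0.29 to -0.16 and the Spink median from -0.32 to -0.16. Klk7 kept its sign (0.55 to 0.77), as did Spink4 (-0.81 to -0.44), Spink5 (-0.70 to -0.45) and Klk6 (0.26 to 0.48). The sign turned for Klk10 (-0.43 to 0.11), Klk11 (-0.18 to 0.16), Klk12 (-0.23 to 0.33), Klk14 (-0.26 to 0.11), Klk1b1 (-0.21 to 0.0077), Klk1b21 (-0.16 to 0.19), Klk1b3 (-0.28 to 0.0014), Klk4 (-0.61 to 0.15) and Spink8 (-0.22 to 0.018). Signal over background limited Klk11 and Spink10 most, whose lowest columns were 0.51 and 0.54 above the level of probes never detected.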
